A study of Mus musculus with 4 samples.

Results

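The genes Cd4 and Zbtb7b mark the helper T cell lineage, and their accessible sites were followed in mouse CD8+ T cells, which belong to the opposite lineage. The sites were DNase I peaks, stretches of chromatin that the enzyme DNase I cuts readily, whose midpoint lay in 1 of 2 windows of the mouse build mm9. The Cd4 window runs from 124780000 to 124880000 on chromosome 6, with the gene at about 124.815 to 124.838 Mb. The Zbtb7b window runs from 89150000 to 89220000 on chromosome 3, with the gene at about 89.18 to 89.20 Mb. Across 4 libraries the windows held 21 peaks, which merged into 11 regions, 7 around Cd4 and 4 around Zbtb7b, of 38986 regions in the whole series. The windows are defined by position and not by peak values, although earlier results of these data were known when the regions to describe were chosen. Naive CD8+ T cells (GFP+ TCRbeta+, CD62Lhi and CD44lo-med) were sorted from spleen, kept for 72 h with IL-7 and IL-15, and then digested with DNase I. The DKO group (2 libraries) lacked Tcf1 and Lef1, deleted from floxed alleles by hCD2-Cre, a recombinase under the human CD2 promoter, which is active in lymphoid cells. The WT group (2 libraries) carried wild-type Tcf1 and Lef1, with the same hCD2-Cre and the Rosa26-lsl-GFP reporter that makes recombined cells fluorescent. The labels give no age, sex or number of animals per library, so the spread between replicates may be technical.

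Cd4 encodes the coreceptor that binds MHC class II, and CD8 T cells keep it silent. The silencer of mouse Cd4 lies in the first intron, and enhancers lie upstream of the promoter. Zbtb7b encodes ThPOK, the zinc finger factor that commits thymocytes to the helper lineage, and its own silencer is bound by RUNX factors in CD8 cells. Tcf1 and Lef1 bind DNA through an HMG box and are known in thymocytes both to favour Zbtb7b expression and to help keep Cd4 silent in the CD8 lineage. Both genes run towards lower coordinates, so upstream means a higher position. Distances are given from the upper end of the gene as rounded above, which is close to its 5′ end. No mm9 annotation was used, so no peak is assigned to an exon, intron, promoter or named silencer, nor were the loci of CD8 T cell markers located.

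Promoter sequences were at hand for Zbtb7b but not for Cd4, whose stretch also held few peaks. Those around the Zbtb7b starts are shown because the gene's stretch held almost no peaks. Tcf1 and Lef1 also recognise a short DNA core that can be searched for. RefSeq lists 2 starts on build GRCm38.p6, minus strand, and the windows run from 250 bases before to 50 after each. These positions are not on the scale of the mm9 peaks. Capitals mark the RUNX core TGTGGT. The TCF/LEF core CTTTGA was also searched on both strands.
Zbtb7b start 1, chr3:89393329-89393628: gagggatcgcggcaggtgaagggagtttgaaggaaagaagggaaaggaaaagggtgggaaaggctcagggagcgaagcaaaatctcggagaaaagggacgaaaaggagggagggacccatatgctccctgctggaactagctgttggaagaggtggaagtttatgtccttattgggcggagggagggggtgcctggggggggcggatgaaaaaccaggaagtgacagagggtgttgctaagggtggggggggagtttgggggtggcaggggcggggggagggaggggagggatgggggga
Zbtb7b start 2, chr3:89387622-89387921: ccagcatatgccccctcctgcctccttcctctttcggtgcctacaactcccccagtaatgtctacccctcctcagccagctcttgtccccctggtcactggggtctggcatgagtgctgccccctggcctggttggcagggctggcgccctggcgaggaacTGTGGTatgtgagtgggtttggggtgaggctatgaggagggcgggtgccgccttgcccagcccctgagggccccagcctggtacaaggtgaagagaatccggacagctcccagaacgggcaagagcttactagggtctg
Neither stretch held CTTTGA, which 16.0% of the 32851 RefSeq promoters of this length hold. Start 2 held the RUNX core 1 time, at bases 162 to 167 of the printed run, and start 1 did not. That core is in 16.8% of all promoters, and its presence is a match of letters, not a binding site.

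Over the whole series the lists were unequal. The DKO lists held 34788 and 21353 peaks and the WT lists 17521 and 11073, for replicates 1 and 2, and 8068 of the regions were called in all 4. Peaks on chromosome Y numbered 55 and 57 in the DKO lists and 0 in both WT lists, so genotype and whatever set the Y calls cannot be told apart. For each peak the authors' caller gives a fold enrichment, the reads piled up at the summit over the local background. A listed fold is the authors' value and is read here within its own list, with 1 exception. Regions called in both DKO lists are ranked and binned below by the lower of their DKO folds. The DKO lists differ in scale, with a median fold over the regions called in all 4 of 13.2 and 9.59 in replicates 1 and 2. The pileup itself, a number of fragments at the summit, was solved from the fold and the p-value, and its exact 95% Poisson interval covers counting error only. The smallest pileup listed was 8 in both DKO libraries and 10 and 9 in WT replicates 1 and 2. The smallest fold listed was 4.0 in every list. A site with no peak had not passed the listing thresholds, which does not show that it was closed.

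Across both windows, 1 region had calls that split by genotype. That region, of 178 bp at chr6:124853682-124853859, lay 15.8 kb upstream of the rounded Cd4 5′ end and towards Lag3. It was called in both DKO lists and in neither WT list. The calls come from lists of unequal length, and the WT signal at the site was not measured. Lag3 encodes an inhibitory receptor for MHC class II and is the next protein-coding gene on that side in RefSeq. Whether the region falls inside Lag3 was not determined. The pileup was 34 fragments (23.5 to 47.5) in DKO replicate 1 and 31 (21.1 to 44.0) in DKO replicate 2, over local backgrounds of 1.74 and 1.69. The authors' folds were 12.8 and 11.9, with −log10 p of 32.3 and 28.9, in DKO replicates 1 and 2. The peak stood in the top 24.6% of the DKO replicate 1 list and in the top 14.0% of the DKO replicate 2 list by p-value. The DKO summits fell 3 bp apart, at 124853773 and 124853770. Over the 19062 regions called in both DKO lists, the median distance between summits was 14 bp, and 15.3% had summits this close or closer.

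No WT peak touched that region. The nearest one in WT replicate 2 lay 3.04 kb away, at chr6:124850517-124850638, and the nearest one in WT replicate 1 lay 17.5 kb away, inside the Cd4 stretch. The caller numbers its peaks along the chromosome, and every listed peak of the Cd4 window carried the number next to that of its neighbours. No called WT peak had therefore been dropped from the lists within the window. Such calls are common in the series. Regions called in both DKO lists and neither WT list (DKO-only regions) made up 14.3% of all regions. In the Cd4 window they were 1 of 7, which is the same share. In the Zbtb7b window they were 0 of 4, and over both windows 1 of 11 (9.09%). By the lower of its DKO folds, 11.9, the region upstream of Cd4 ranked 102 of 5593 DKO-only regions. That is the top 1.82%, where the median was 5.88. In DKO replicate 1 its fold of 12.8 was below the median of regions called in all 4 lists, 13.2. In DKO replicate 2 its fold of 11.9 was above that median, 9.59. The DKO-only set and the shares below were not restricted to autosomes, although neither WT list had a peak on chromosome Y.

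Strong DKO calls were mostly shared with WT. Of the 2361 regions whose DKO folds were both at least 11.9, 1968 (83.4%) had a peak in both WT lists and 291 in 1. The other 102 (4.32%) had a peak in neither WT list and are the regions already counted in the rank above. Among regions called in both DKO lists with a lower fold from 4 to below 6, the share with no WT peak was 55.1%. The share was 8.44% from 10 to below 12, the bin that holds the region upstream of Cd4. It was 4.26% from 12 to below 15 and 3.65% from 15 to below 20. Among the 93 regions at 20 and over it was 8.6%. The bins were set after the fold of this region was known, so these shares are a description. The region kept its DKO-only call at −log10 q of at least 5 and 10. It also did so with equal list lengths by either ranking, and under both other overlap rules. Most of these outcomes followed from its own values. Its −log10 q was 28.6 and 24.6 in DKO replicates 1 and 2. Its p-value ranks were 8557 and 2992, within the 11073 peaks kept. The nearest WT peak lay 3.04 kb away, beyond the joining distance of 500 bp. Stricter cuts only remove peaks and cannot add a WT call. An exact two-sided permutation test of 2 against 2 libraries cannot give a p below 0.33 and so cannot pass 0.05 for any region.

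**Figure D1:**
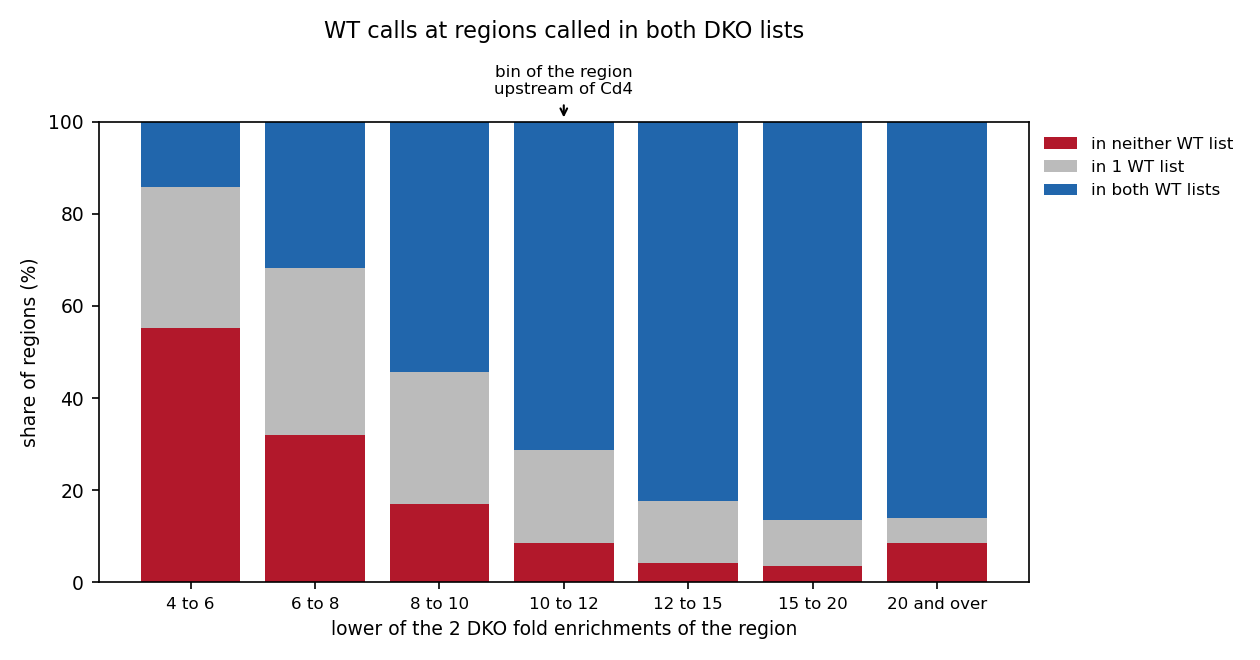
Share of regions called in both DKO lists (y axis, %) that had a peak in neither, in 1 or in both WT lists, by the lower of their DKO fold enrichments (x axis). The share with no WT peak was 55.1% in the weakest bin and 8.44% in the bin of the region upstream of Cd4, marked by the arrow. It was 8.6% at 20 and over. All chromosomes are included.

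The Cd4 stretch itself held a single peak in each replicate 1 and none in replicates 2. In DKO replicate 1 the peak was at chr6:124835249-124835453, 2.6 kb inside the rounded 5′ end, with a pileup of 11 (5.49 to 19.7) and a fold of 4.50. It ranked 33106 of the 34788 peaks of its list by p-value, and its fold was above 13.7% of those of regions called in that list alone. In WT replicate 1 the peak was at chr6:124836066-124836193, 1.9 kb inside the rounded 5′ end, with a pileup of 16 (9.15 to 26.0) and a fold of 5.37, and ranked 12321 of 17521. That fold was above 71.0% of those of the 1667 regions called in WT replicate 1 alone, whose median was 4.80. The peaks did not overlap and lay 612 bp apart. Both sit on the gene side of the rounded 5′ end. The first intron and its silencer were not located, so neither peak was set against them. Each was called in 1 list alone, as were 41.7% of all regions in the series.

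No library had a peak at the Cd4 start. The stretch from 124836194 to 124850516, 14.3 kb that span the rounded 5′ end and so leave room for its rounding, held no peak in any list. Above it, the peak in WT replicate 2 at chr6:124850517-124850638 lay 12.6 kb upstream. It had a pileup of 12 (6.20 to 21.0) and a fold of 4.09, ranked 10649 of 11073, and no other list held it. The Cd4 enhancers, which lie on that side, were not located. A further peak in 1 list was at chr6:124807106-124807229, 30.8 kb below the rounded 5′ end and outside the gene stretch. It was called in DKO replicate 1, with a pileup of 12 (6.20 to 21.0) and a fold of 5.22. Calls in DKO replicate 1 alone were 31.6% of all regions, against 4.3% for DKO replicate 2, 4.28% for WT replicate 1 and 1.49% for WT replicate 2.

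**Figure D2:**
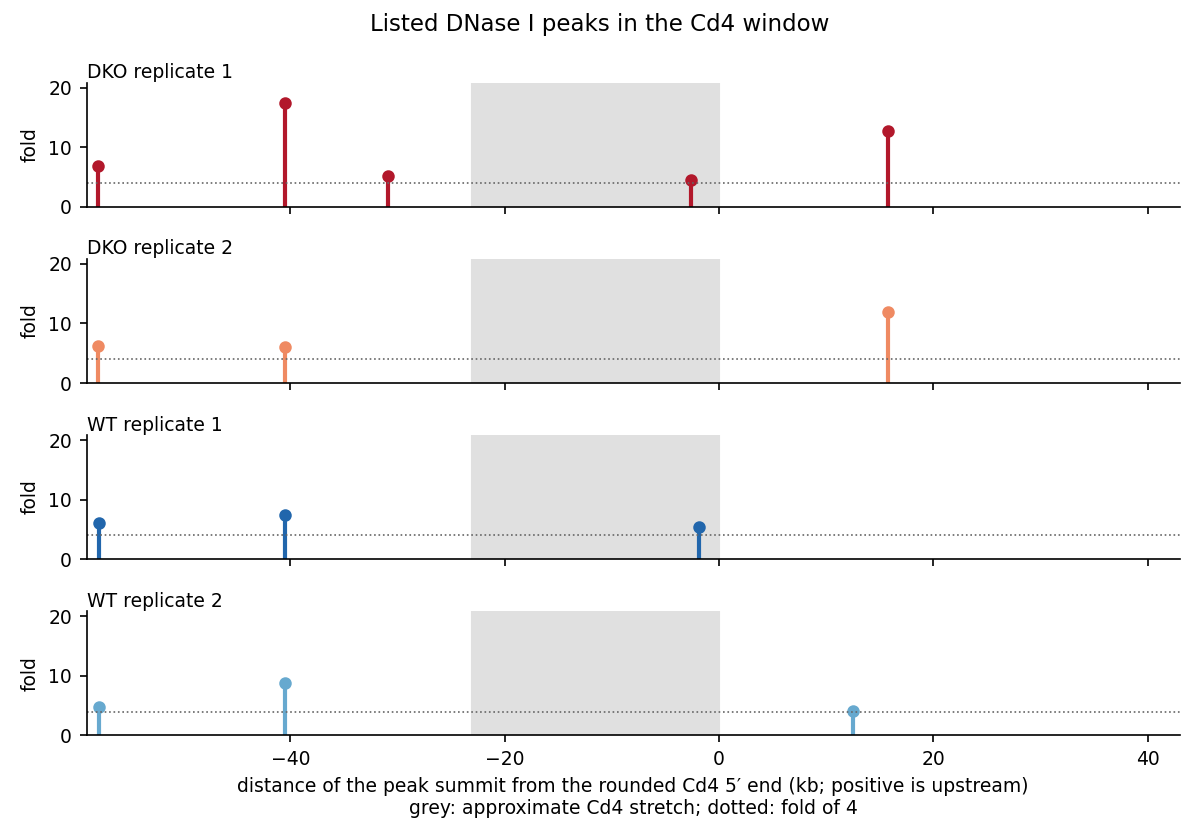
Peaks of the Cd4 window by library, DKO above WT, with the authors' fold enrichment (y axis) against the distance of the summit from the rounded 5′ end (x axis, kb, positive upstream). The stem at 15.8 kb appears in both DKO rows and in neither WT row, and each replicate 1 has 1 low stem inside the grey Cd4 stretch.

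The Cd4 window held 2 regions called in all 4 libraries, both beyond the 3′ end of Cd4 among its neighbours. The RefSeq table orders these, moving away from Cd4, as Gpr162, P3h3 and Gnb3. Regions called in all 4 were 20.7% of the series. To compare libraries on equal terms, each shared region was ranked by its −log10 p among the 8068 regions called in all 4 and given as a percentile. At chr6:124797284-124797562, 40.6 kb below the rounded 5′ end, the percentile was 58.1 and 7.0 in DKO replicates 1 and 2, and 40.5 and 79.8 in WT replicates 1 and 2. The genotypes overlapped, with DKO replicate 2 lowest and WT replicate 2 highest. The pileups were 40 and 13 in DKO and 21 and 24 in WT, and all 4 summits fell within 16 bp. The mean percentile was 32.5 ± 36.2 in DKO and 60.2 ± 27.8 in WT (SD, n = 2 each), a difference of -27.6 (exact permutation p = 0.67, adjusted over 5 comparisons to 1.0).

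At chr6:124780020-124780242, 57.9 kb below the rounded 5′ end, the percentile was 14.0 and 25.0 in DKO replicates 1 and 2, and 46.5 and 21.6 in WT replicates 1 and 2. Here WT replicate 1 stood above the other libraries and WT replicate 2 lay between the DKO values. The pileups were 41 and 26 in DKO and 30 and 19 in WT. The difference of -14.6 was smaller than the spread between the WT replicates, whose SD was 17.6 (exact permutation p = 0.67, adjusted 1.0). This region lies at the lower edge of the window. The nearest peak outside that edge was also listed in every library, 0.444 and 0.450 kb away in DKO replicates 1 and 2, and 0.447 and 0.480 kb away in WT replicates 1 and 2. At the upper edge, every library had a peak between 0.914 and 0.950 kb outside.

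Zbtb7b had no peak within its stretch in DKO replicate 2 or in either WT library. DKO replicate 1 had 1, a region of 91 bp at chr3:89192874-89192964, 7.1 kb inside the rounded 5′ end. Its pileup was 17 (9.90 to 27.2) and its fold 7.65, above 73.1% of the 12329 regions called in that list alone, where the median fold was 6.16. Because the gene's ends are known here to 10 kb, the peak was not set against the 2 RefSeq starts printed above. In the other libraries the gap without peaks was wide, at 103 kb in DKO replicate 2, 104 kb in WT replicate 1 and 145 kb in WT replicate 2. In each WT library 1 called peak within that gap had been dropped from the list, as the peak numbers skip by 2 there. Its position is not known.

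Of the 3 shared regions, the one with the highest percentile in every library lay upstream of Zbtb7b, at chr3:89215637-89216255, 15.9 kb above the rounded 5′ end. RefSeq places Lenep, Flad1 and Cks1b on that side, and the region was not assigned to any of them. It was called in all 4 libraries, with pileups of 93 (75.1 to 114) and 32 (21.9 to 45.2) in DKO replicates 1 and 2, and 28 (18.6 to 40.5) and 33 (22.7 to 46.3) in WT replicates 1 and 2. Raw pileups are not scaled between libraries. The median pileup of the 8068 shared regions was 45 and 27 in DKO and 24 and 20 in WT, so the largest pileup came from the library with the largest median. In the DKO replicate 1 list the peak ranked 124 of 34788. The percentile among shared regions was 98.7 and 69.6 in DKO and 72.4 and 95.5 in WT, with DKO replicate 1 and WT replicate 2 high and the other libraries lower, so that the genotypes overlapped here too. The means were 84.2 ± 20.6 in DKO and 83.9 ± 16.3 in WT (SD, n = 2 each), a difference of 0.3 (exact permutation p = 1.0, adjusted 1.0). The summits fell within 38 bp. The region stayed called in all 4 libraries under the settings used above for the region upstream of Cd4, mostly because its values lay well inside them. Its −log10 q was 104 and 24.8 in DKO replicates 1 and 2, and 18.2 and 22.4 in WT replicates 1 and 2. Its p-value ranks were 124 and 2935 in DKO and 2860 and 380 in WT, within the 11073 peaks kept.

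The other Zbtb7b regions were called in DKO replicate 1 alone and lay below the gene, on the side of Dcst2, Dcst1 and Adam15. The one at chr3:89158826-89159029 had a pileup of 22 (13.8 to 33.3) and a fold of 9.67. The one at chr3:89153944-89154053 had 14 (7.65 to 23.5) and 6.02. Outside the window, the nearest peak on the upper side was listed in all 4 libraries, 2.35 to 2.39 kb beyond the edge. On the lower side the nearest lay 5.38 and 37.8 kb away in DKO replicates 1 and 2, and 37.8 and 79.5 kb away in WT replicates 1 and 2.

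**Figure D3:**
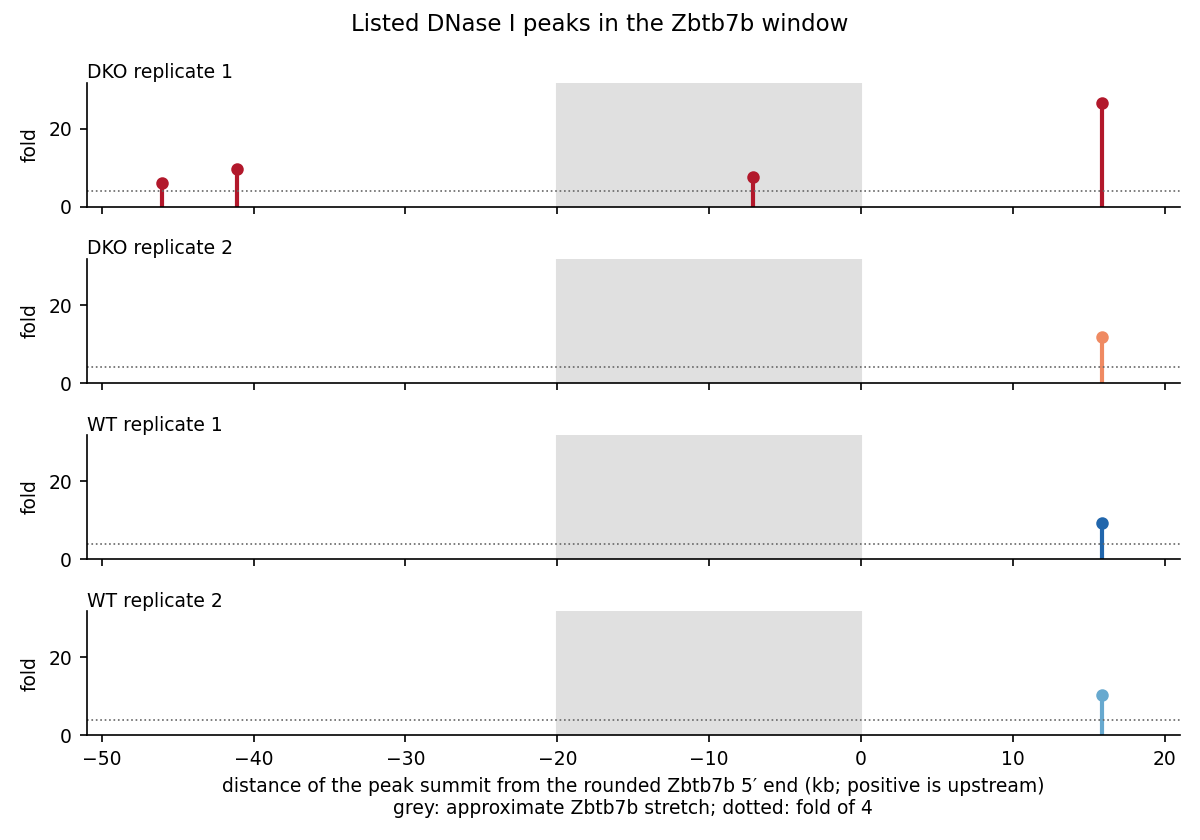
Peaks of the Zbtb7b window by library, DKO above WT, with the authors' fold enrichment (y axis) against the distance of the summit from the rounded 5′ end (x axis, kb, positive upstream). The stem upstream of the grey Zbtb7b stretch is in all 4 rows, and the other stems are in DKO replicate 1.

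Counted by library, the Cd4 window held 5 and 3 peaks in DKO replicates 1 and 2, and 3 in each WT replicate. The mean was 4.0 ± 1.41 in DKO and 3.0 ± 0.0 in WT (SD, n = 2 each; exact permutation p = 1.0). The Zbtb7b window held 4 and 1 peaks in DKO, and 1 in each WT replicate (exact permutation p = 1.0). The whole excess of DKO came from replicate 1, the longest list, and without it both windows had equal means. Set against list length, the Cd4 window took 1.44 and 1.40 of every 10000 listed peaks in DKO and 1.71 and 2.71 in WT. For Zbtb7b these rates were 1.15 and 0.468 in DKO and 0.571 and 0.903 in WT. No region of either window was listed in both WT libraries and neither DKO library, a pattern seen in 0.631% of all regions. These counts are of listed peaks, and each WT list had dropped a called peak in the gap that covers most of the Zbtb7b window.

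**Figure D4:**
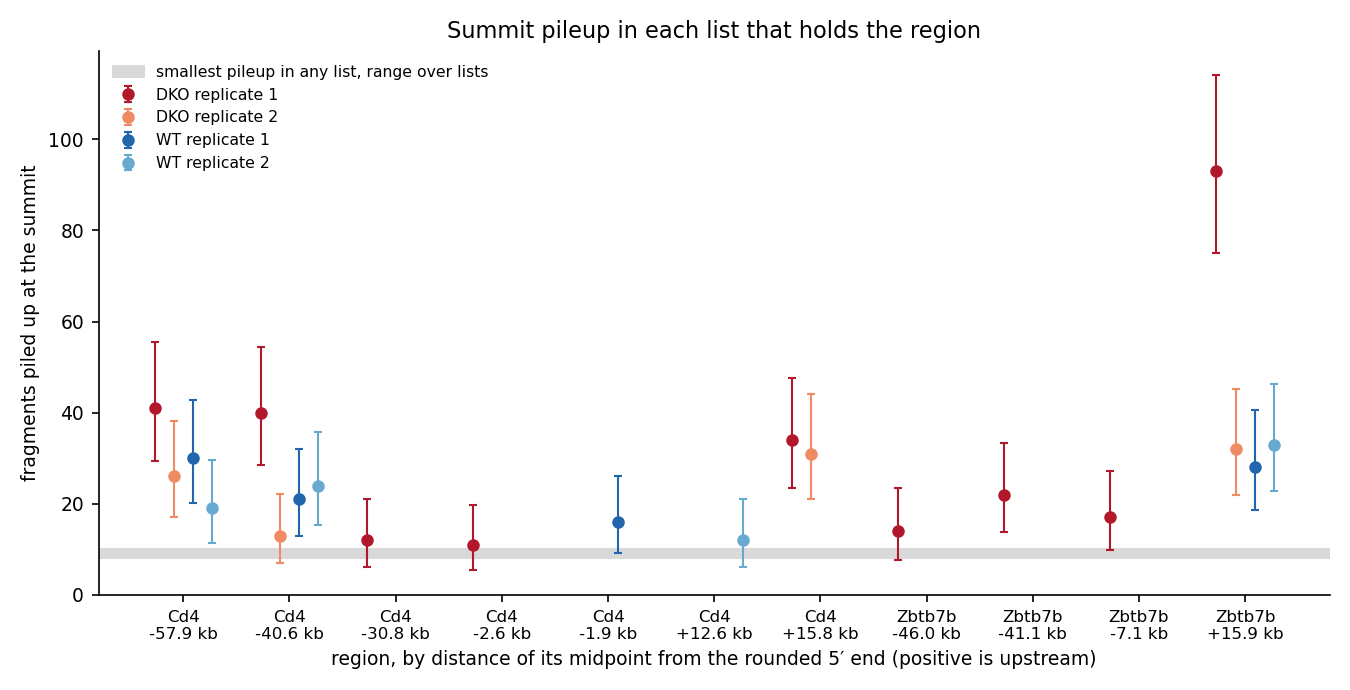
Fragments piled up at the summit (y axis) for the 11 regions (x axis, by distance from the rounded 5′ end), in each list that holds the region, with exact 95% Poisson intervals. The region at +15.8 kb of Cd4 has points for both DKO libraries, and no point for WT. Pileups are not scaled between libraries, and DKO replicate 1, with 93 fragments at the Zbtb7b region at +15.9 kb, also has the highest median over shared regions, 45.

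**Figure D5:**
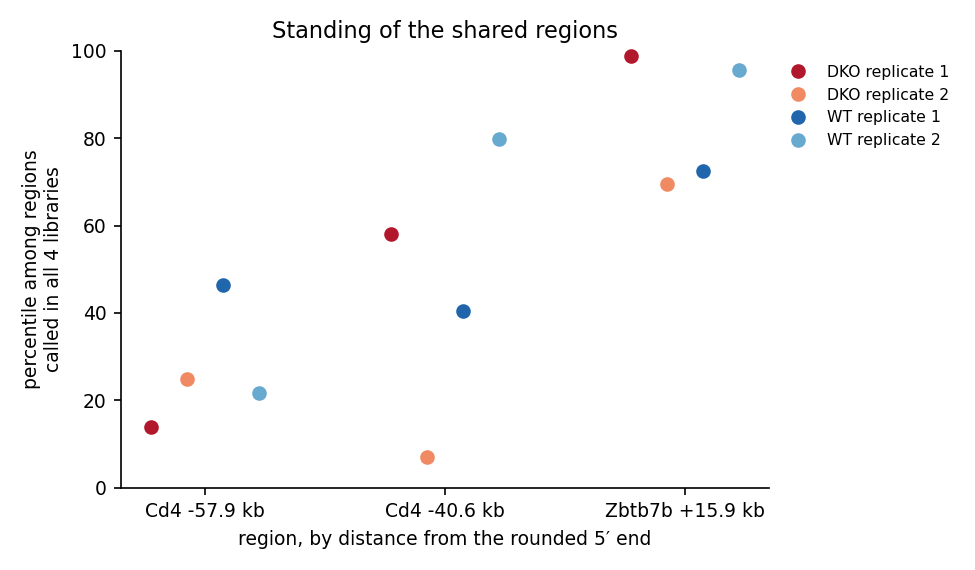
Percentile of the 3 shared regions among the 8068 regions called in all 4 libraries (y axis), by library (points). DKO and WT points overlap at each region, and the Zbtb7b region at +15.9 kb stands highest, between 69.6 and 98.7.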

How the data were processed

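DNase-seq gave 1 deposited peak list per library. The submitters' processing notes name FastQC, Bowtie2 2.2.5, MACS2 2.1.1 and build mm9; settings, any control library and duplicate handling were not given in the sources used here. For each peak the authors deposited a fold ratio (pileup plus 1 over background plus 1), the −log10 p and −log10 q, and a score of 10 times the −log10 q. Starts and summits were converted to count from 1. Depth is unknown. Pileup and background were solved from fold and p, and the pileup was whole within 0.02 for 100% of peaks with −log10 p under 250. The solver and the region classes were run on simulated data built with the same formula and with well separated regions. That checks the code and not the deposited lists. The lowest background was 1.23 and 1.15 in DKO and 1.50 and 1.47 in WT. Peaks overlapping by at least 1 bp were merged, and every region of the windows is named. Sequences are from RefSeq. Exact permutation tests are two-sided. Alternatives were −log10 q of at least 5 and 10, equal list lengths of 11073, other overlap rules, windows widened by 20 kb, other ranking measures and leaving out each library. The members and lists were chosen with earlier results of these data known. Planned checks of CD8 T cell, CD4 helper, B cell and myeloid markers, and of other lineage genes, needed an mm9 annotation and were not run. Python 3.11.15, numpy 2.4.6, pandas 2.3.3, scipy 1.17.1 and matplotlib 3.10.9 were used.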

Additional observations from a re-analysis of the deposited data

How the results depend on the processing

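Of 117 alternative values, 98 kept their direction or stayed within 1.5 times the reported value. Some of these could not move, so the tally does not measure robustness. Overlap rules do not enter the difference in peaks, and the WT libraries had equal counts in each window. A count of 0 that stayed 0 was also scored as kept. With lists of equal length, by −log10 p or by fold, the difference in peaks of the Cd4 window (DKO minus WT) turned to -0.5 and -1.0, and that of the Zbtb7b window went to 0.0 under both. The Cd4 regions called in all 4 libraries then numbered 0, as they did at −log10 q of at least 10, and ranking by fold gave 1 WT-only region at Cd4. Windows widened by 20 kb held 6 shared regions at Cd4 and 3 at Zbtb7b. The percentile difference of the shared Zbtb7b region turned to -0.3 when ranked by fold. Leaving out each library gave differences in peaks of 0.0 to 2.0 for Cd4 and 0.0 to 3.0 for Zbtb7b, with the 0.0 in both cases without DKO replicate 1. DKO-only regions then ranged from 1 to 3 at Cd4 and from 0 to 3 at Zbtb7b, and WT-only regions from 0 to 1 at Cd4. Leaving out a library can only raise these counts. The percentile difference of the shared regions ranged from -25.5 to -1.3 at chr6:124780020, from -53.1 to -1.2 at chr6:124797284 and from -14.2 to 14.0 at chr3:89215637. Except where the construction sets the direction, the cause was not tested. No paired analysis was possible because nothing in the labels says that equal replicate numbers share an animal or day. The lists give no read depth, so no detection limit was set for sites without a peak.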
